A study of Mus musculus with 9 samples.

Results

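A set of 10 receptor genes that pigment cells and melanomas use to sense growth factors and hormones was followed in B16F10 cells, a mouse melanoma line. They were taken as a fixed list of 10 symbols, Kit, Ednrb, Mc1r, Met, Erbb3, Egfr, Pdgfra, Pdgfrb, Fgfr1 and Igf1r, among 54752 genes in the count table, and each matched 1 Ensembl identifier. RNA came from 9 libraries in 3 groups of 3: GFPsg, with a guide named for GFP and a genotype given as WT, and Tada2bsg1 (guide 1) and Tada2bsg2 (guide 2), whose stated genotype was Tada2b knockout. All cells were grown in DMEM with 10% FBS. Tada2b encodes an adaptor of the SAGA histone acetyltransferase module. Whether each guide line was a pool or a clone, and whether the replicates were separate cultures, was not given in the sources used here, so p-values measure only the spread between these libraries, which may be technical.

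Most of these receptors are tyrosine kinases that signal through RAS, MAP kinases and PI3 kinase when a ligand binds. Mc1r and Ednrb instead encode receptors coupled to G proteins, for melanocortin and for endothelins. In the pigment lineage, KIT and EDNRB guide melanoblast survival and migration, MC1R raises cyclic AMP and with it the transcription factor MITF, and ERBB3 serves the neural crest, whereas PDGF receptors are best known from mesenchymal and mural cells.

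Library totals ran from 70555655 to 76923854 reads. Values are CPM, the read count scaled to library size and then by trimmed mean of M-values (TMM). The TMM factors were 0.946 to 0.983 in GFPsg and 1.012 to 1.033 in the libraries labelled knockout. Scaling moved the balance of small changes: 48.4% of called genes were higher in the knockout contrast, against 63.3% with library size alone, and the median log2 change over the genes tested moved from -0.02 to 0.07. Tada2b itself lay at 25.17 to 27.97 CPM in GFPsg, 32.26 to 33.32 with guide 1 and 25.9 to 28.95 with guide 2. Its mRNA was thus not lower under the knockout label, and a total over the whole gene cannot tell whether its sequence was altered. All 10 melanocyte markers listed (Mitf, Sox10, Pax3, Tyr, Tyrp1, Dct, Pmel, Mlana, Slc45a2 and Oca2) were measured in every group. Their summed level was 21254 to 22074 CPM in GFPsg, 5295 to 5539 with guide 1 and 7433 to 7678 with guide 2. Tyrp1 and Dct made up most of that sum. All 10 were called lower in the knockout contrast, where 26.3% of tested genes were lower. Their log2 changes ran from -0.28 for Pax3 to -2.91 for Oca2.

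The bases upstream of Mc1r, Met and Kit are shown first because these 3 receptor genes fell and have RefSeq promoter entries (build GRCm38.p6). Entries were used for 7 of the 10 receptor genes, all but Erbb3, Pdgfrb and Fgfr1. Windows of 250 bases before to 50 after the start site were searched on both strands for TCATGTG (the M-box bound by MITF), CACGTG (E-box), TGANTCA (AP-1), CATTCC (TEAD) and ACAAAG (SOX). The sequences run 5′ to 3′ with matches in capitals: the 250 bases upstream of Mc1r, 30 bases around each Met match, and the 179 bases upstream of Kit that precede its first GENCODE exon.
Mc1r, chr8:123406832-123407081, plus strand: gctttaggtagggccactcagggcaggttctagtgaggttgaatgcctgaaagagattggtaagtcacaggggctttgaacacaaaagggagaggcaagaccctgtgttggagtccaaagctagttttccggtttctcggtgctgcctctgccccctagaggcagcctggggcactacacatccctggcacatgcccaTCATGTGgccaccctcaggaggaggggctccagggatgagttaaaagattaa
Met E-box, chr6:17463820-17463849, plus strand: ggacgaacagaCACGTGctggggcgggtac
Met AP-1, chr6:17463892-17463921, plus strand: tgttgcccggcTGAGTCAcgggccgggcag
Kit, chr5:75574737-75574915, plus strand: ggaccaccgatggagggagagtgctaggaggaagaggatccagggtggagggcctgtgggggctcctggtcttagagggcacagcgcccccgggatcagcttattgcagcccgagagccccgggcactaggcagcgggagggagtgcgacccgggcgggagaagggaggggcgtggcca
Mc1r held 1 match, an M-box that began 52 bases before the start site. M-box letters occurred in 3.77% of the 32851 promoter windows searched. Met held an E-box 126 bases and an AP-1 match 54 bases before its start, letters found in 7.15% and 7.81% of windows, and both lie in the first exon of GENCODE transcripts that start earlier than the RefSeq entry. None of these matches overlapped another. Both Kit entries, which start 4 bases apart, lacked all 5 motifs, as did Ednrb, Egfr and Pdgfra, and Igf1r had a SOX match 9 bases past its start (18.7% of windows). TEAD letters, present in 14.7% of windows, were in none of these entries. A match is only a run of letters, and its absence says nothing about the factor.

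In the libraries labelled knockout 4 receptor genes fell, Mc1r, Kit, Erbb3 and Met, and Pdgfrb rose. Igf1r was called higher by a small margin, Pdgfra and Fgfr1 were not called, and Ednrb and Egfr had too few reads to test. Of the 8 that passed the filter on low counts, 6 were called in the knockout contrast, the mean of both guides against GFPsg (edgeR quasi-likelihood test, Benjamini-Hochberg adjusted p under 0.05). In that contrast 51.0% of all 17931 tested genes were called, 24.7% higher and 26.3% lower, so a call was common in this contrast. Guide 1 gave 5 calls, 4 lower and 1 higher, where 48.4% of tested genes were called (23.8% higher, 24.5% lower). Guide 2 gave 6, 4 lower and 2 higher, where 45.1% were called (22.1% higher, 23.0% lower). Both guides were set against the same 3 GFPsg libraries, so their values are given side by side. In bulk RNA, fewer cells with a transcript and less of it per cell cannot be told apart.

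**Figure D1:**
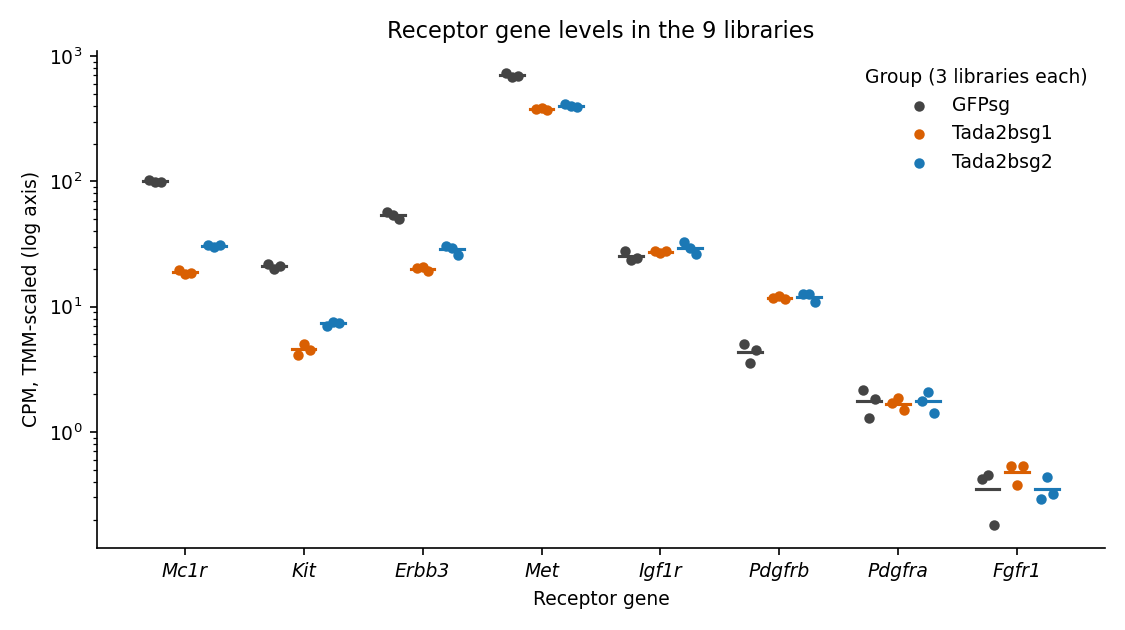
Level of the 8 tested receptor genes in each library, in TMM-scaled CPM on a log axis; points are libraries, bars are group means, colours are the 3 groups. The GFPsg points of Mc1r, Kit, Erbb3 and Met lie above all points with either guide and those of Pdgfrb lie below, while the groups overlap for Igf1r, Pdgfra and Fgfr1.

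Mc1r, the melanocortin receptor that switches melanin type, had the largest fall of the 8 tested. It lies on chromosome 8 from 123407107 to 123410744 on the plus strand of mm10 (ENSMUSG00000074037), as 1 exon. Its level was 102.4, 98.54 and 99.38 CPM in the GFPsg libraries, 19.47, 18.29 and 18.56 with guide 1, and 30.78, 30.12 and 31.07 with guide 2. The 3 groups did not overlap, and the guide 2 libraries stood between the others. With guide 1 it fell by 2.41 ± 0.04 on the log2 scale (SE; edgeR adjusted p = 5.89e-17), which left 18.8% of the control level, and with guide 2 by 1.71 ± 0.04 (edgeR adjusted p = 2.90e-15), which left 30.6%. Exons of Gm38092 on the opposite strand share 653 of its 3638 exon bases; Gm38092 had 0 reads in all 9 libraries, and without a stated strand setting reads of the shared bases cannot be told apart.

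Kit, the receptor for stem cell factor that melanoblasts need, fell nearly as far (ENSMUSG00000005672, chromosome 5, 75574916 to 75656722, plus strand). It was at 21.87, 19.83 and 21.02 CPM in GFPsg, at 4.08, 5.05 and 4.52 with guide 1 and at 7.01, 7.59 and 7.41 with guide 2. Again the 3 groups were apart, with guide 1 lowest. The log2 change was -2.20 ± 0.08 with guide 1 and -1.51 ± 0.08 with guide 2 (SE; edgeR adjusted p = 3.01e-13 and 3.62e-11), which left 21.7% and 35.1% of the control level.

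Erbb3 encodes the neuregulin receptor whose own kinase is weak and which signals through a partner such as ERBB2 (ENSMUSG00000018166, chromosome 10, 128567523 to 128589652, minus strand). Its levels were 57.05, 53.85 and 49.78 CPM in GFPsg, 20.28, 20.78 and 19.15 with guide 1, and 30.39, 29.6 and 26.01 with guide 2. The groups did not overlap and kept the order seen for Mc1r and Kit. Erbb3 fell by 1.42 ± 0.06 on the log2 scale with guide 1 and by 0.90 ± 0.06 with guide 2 (SE; edgeR adjusted p = 6.12e-12 and 2.71e-09).

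Met, the receptor for hepatocyte growth factor, was the most abundant of the 10 and fell less (ENSMUSG00000009376, chromosome 6, 17463800 to 17573980, plus strand). It stood at 727.0, 676.9 and 693.5 CPM in GFPsg, 376.7, 382.5 and 373.9 with guide 1, and 413.7, 397.3 and 393.4 with guide 2. Every library labelled knockout was below every control, and the groups of the 2 guides lay close together without overlapping. The log2 change was -0.89 ± 0.04 with guide 1 and -0.80 ± 0.04 with guide 2 (SE; edgeR adjusted p = 4.12e-12 and 2.24e-11), leaving 54.0% and 57.4% of the control level.

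Pdgfrb, the PDGF receptor of mural cells and fibroblasts that binds PDGF-B, was the receptor gene with a large rise (ENSMUSG00000024620, chromosome 18, 61045150 to 61085061, plus strand). It went from 5.01, 3.52 and 4.53 CPM in GFPsg to 11.81, 12.07 and 11.53 with guide 1 and 12.65, 12.57 and 10.84 with guide 2. The guide groups overlapped each other and lay above all controls. The rise was 2.70-fold with guide 1 (log2 change 1.43 ± 0.10, SE; edgeR adjusted p = 3.28e-09) and 2.75-fold with guide 2 (1.46 ± 0.10; edgeR adjusted p = 3.33e-09).

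Markers of mesenchymal cells moved beside it. Of 14 fibroblast and mural markers 8 were tested, and 6 rose and 2 fell in the knockout contrast. Over all 17931 tested genes 24.7% were called higher and 26.3% lower in it. The summed level of the 14 markers was 181 to 186 CPM in GFPsg, 542 to 559 with guide 1 and 486 to 517 with guide 2. The adhesion gene Mcam, which melanoma cells also express, made up most of that sum in GFPsg, at 124.2 CPM. Podoplanin stood at 39.9 CPM there and Col1a1, a type I collagen chain, at 7.27. With the guides Mcam (281.4 and 252.3 CPM) and Col1a1 (225.5 and 201.8 CPM) made up most of it. The 6 markers not tested were nearly unread: over the 3 libraries of any group Dcn had at most 2 reads, Lum 8, Thy1 3, Rgs5 1, Acta2 11 and Fap 25. On the log2 scale Col1a1 rose by 4.87 in the knockout contrast, Col1a2 by 1.68, the muscle filament gene Des by 1.33 and Mcam by 1.10. The matrix gene Postn rose by 0.70 and the collagen gene Col3a1 by 4.26, and all 6 were also called with both guides. Col3a1 had 2 reads in GFPsg and 58 and 40 with the guides, so the size of its change is poorly known. It could not have passed the filter on its GFPsg reads, while Fap, with 25, 13 and 11 reads in the 3 groups, was not tested. Podoplanin (Pdpn, -0.79) and the pericyte proteoglycan gene Cspg4 (-0.96) fell. Summed endothelial markers were at or below 1.62 CPM, epithelial markers at or below 1.23 CPM and leukocyte markers between 3.64 and 7.41 CPM, higher with the guides, in every library. Ptprc, Ms4a1, Itgam and Tie1 had 0 reads in all 9. What part these markers have in the Pdgfrb result was not tested.

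Pdgfra, its sister receptor, behaved differently in level and in change (ENSMUSG00000029231, chromosome 5, 75152292 to 75198215, plus strand). It was at 2.16, 1.29 and 1.83 CPM in GFPsg, 1.71, 1.85 and 1.49 with guide 1 and 1.76, 2.08 and 1.42 with guide 2, from 86 to 161 reads per library. The 3 groups overlapped. In the knockout contrast its log2 change came to -0.04 with a 95% interval from -0.39 to 0.31 (edgeR adjusted p = 0.869), so that a change of the size seen for Pdgfrb lay outside the interval. Opposite-strand exons of Gm42802 and Gm42803 share 456 and 166 of its exon bases, and these genes had 0 and 2 reads in all.

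Igf1r, the receptor for insulin-like growth factors, was nearly level (ENSMUSG00000005533, chromosome 7, 67952827 to 68233668, plus strand). It was at 27.94, 23.66 and 24.23 CPM in GFPsg, 27.59, 26.95 and 27.63 with guide 1 and 32.74, 29.2 and 26.5 with guide 2. GFPsg replicate 1 stood as high as the guide 1 libraries, and the groups overlapped. In log2 change, the knockout contrast gave 0.17 ± 0.06 (SE; edgeR adjusted p = 0.0356), guide 1 gave 0.12 (95% interval -0.04 to 0.27, edgeR adjusted p = 0.214) and guide 2 gave 0.22 ± 0.07 (edgeR adjusted p = 0.0197). The call in the knockout contrast was lost without GFPsg replicate 2 (log2 change 0.14, edgeR adjusted p = 0.146) and without GFPsg replicate 3 (0.15, edgeR adjusted p = 0.121), over a range of adjusted p from 0.00405 to 0.146 in 16 alternatives. The guide 2 call was lost without GFPsg replicate 2 (0.19, edgeR adjusted p = 0.077), GFPsg replicate 3 (0.20, edgeR adjusted p = 0.0669) or Tada2bsg2 replicate 1 (0.16, edgeR adjusted p = 0.0773), in a range from 0.00111 to 0.0773 over 17 alternatives. Without GFPsg replicate 1, guide 1 gained a call (0.19, edgeR adjusted p = 0.0342, range 0.0342 to 0.446).

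Fgfr1, a receptor for fibroblast growth factors, was barely expressed (ENSMUSG00000031565, chromosome 8, 25513654 to 25575718, plus strand). It had 31, 30 and 13 reads in GFPsg (0.42, 0.45 and 0.18 CPM), 42, 28 and 41 with guide 1 (0.53, 0.38 and 0.53 CPM) and 22, 34 and 23 with guide 2 (0.29, 0.44 and 0.32 CPM). The groups overlapped, and the interval of the knockout contrast, from -0.42 to 0.88 on the log2 scale, was wide (log2 change 0.23, edgeR adjusted p = 0.572). Exons of the antisense gene Gm16159, with 0 reads, share 164 of its exon bases.

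Ednrb and Egfr were silent or close to it in these cultures. Ednrb, the endothelin receptor of the pigment lineage (ENSMUSG00000022122, chromosome 14, 103814625 to 103844402, minus strand), had 1, 1 and 0 reads in GFPsg, 0, 0 and 2 with guide 1 and 0 in all guide 2 libraries. Egfr, the epidermal growth factor receptor (ENSMUSG00000020122, chromosome 11, 16752203 to 16918158, plus strand), had 0 reads in all 9 libraries, which allows up to 0.00449 CPM over them (3 counts, counting error only). No fold is given for either gene. The melanocyte markers Tyrp1 and Dct, by contrast, stood at 9002 ± 130 and 5133 ± 231 CPM in GFPsg (mean ± SD, n = 3), so Ednrb was near 0 in cells with pigment gene expression.

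**Figure D2:**
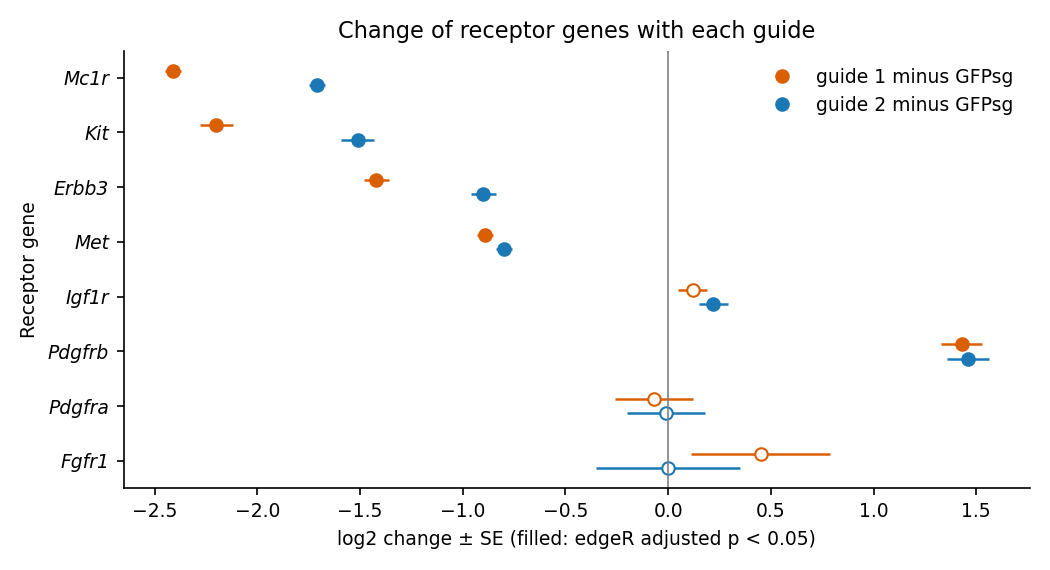
Change of the 8 tested receptor genes with each guide against GFPsg, as log2 change with its standard error; filled points passed the edgeR test. Mc1r, Kit, Erbb3 and Met lie left of 0 and Pdgfrb lies near 1.4 to 1.5 with both guides.

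Levels can be compared between genes only per length, so CPM were divided by the kilobases (kb) of merged annotated exons. In GFPsg the order was Met at 91.0 ± 3.32 CPM per kb (SD, n = 3), Mc1r at 27.5 ± 0.563, Erbb3 at 8.90 ± 0.606, Kit at 2.35 ± 0.115, Igf1r at 1.51 ± 0.139, Pdgfrb at 0.795 ± 0.139, Pdgfra at 0.176 ± 0.0439 and Fgfr1 at 0.0355 ± 0.0148. No neighbours among these 8 overlapped in their 3 libraries, and Ednrb and Egfr came last. With guide 1 Kit dropped to 0.510 ± 0.0549 CPM per kb, below Pdgfrb at 2.15 ± 0.0489 and Igf1r at 1.63 ± 0.0228. With guide 2 the same 3 genes stood at 0.823 ± 0.0331, 2.19 ± 0.187 and 1.76 ± 0.186 CPM per kb. Met led in every group. Dividing by the longest annotated transcript instead, a choice made after the data were seen, left the GFPsg order as it was and placed Igf1r (2.40 and 2.58 CPM per kb) above Pdgfrb (2.18 and 2.22) with the guides. Kit was below both under either length.

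**Figure D3:**
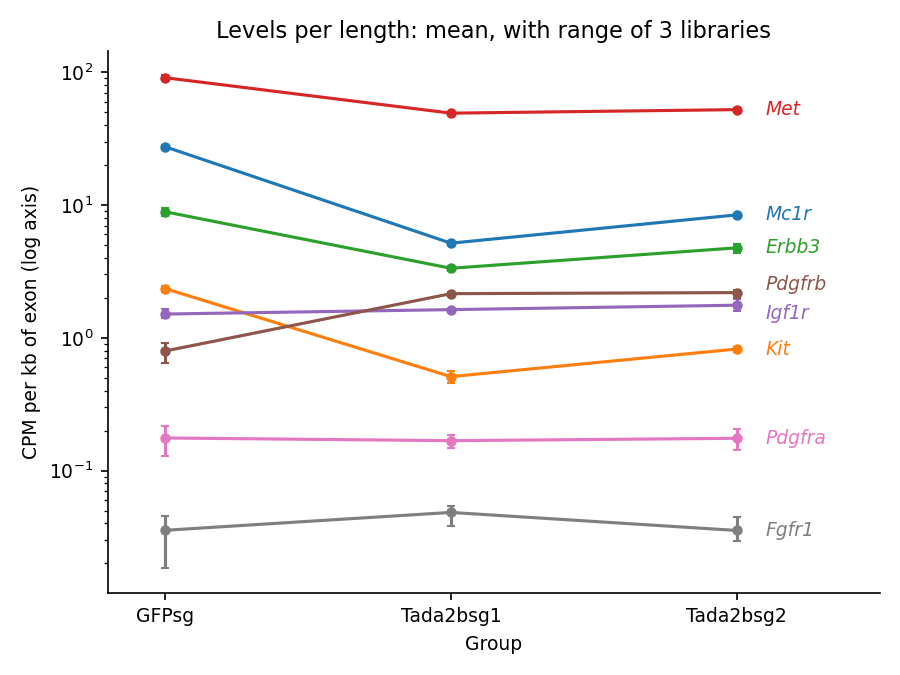
Level per kb of merged exon for the 8 tested receptor genes in each group, on a log axis; points are means, bars span the 3 libraries, lines join the same gene. Kit, at 2.35 in GFPsg, drops below Pdgfrb and Igf1r in both guide groups.

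The guides differed for the 3 receptor genes that fell most. In guide 2 minus guide 1, 3 of the 8 tested receptor genes were called, all higher with guide 2. In that contrast 3.68% of tested genes were called, 2.66% higher and 1.02% lower. The control libraries have no weight in the contrast itself, but they shared the filter, the scaling and the fit of the spread behind it. The log2 difference was 0.71 ± 0.04 for Mc1r, 0.69 ± 0.08 for Kit and 0.51 ± 0.06 for Erbb3 (SE; edgeR adjusted p = 6.33e-08, 7.70e-05 and 1.20e-04), and all 3 libraries with guide 2 were above all 3 with guide 1 for each. Met differed by 0.09 (95% interval 0.01 to 0.17, edgeR adjusted p = 0.262) and Pdgfrb by 0.03 (-0.17 to 0.23, edgeR adjusted p = 0.917), neither of which was called. Melanocyte markers moved with these receptors: 9 of the 10 were higher with guide 2, with a median difference of 0.50 beside 0.0 over all tested genes. Sox10 (0.45), Mitf (0.44) and Tyr (0.66) were among them, and Pax3 (0.04) was the marker not called.

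**Figure D4:**
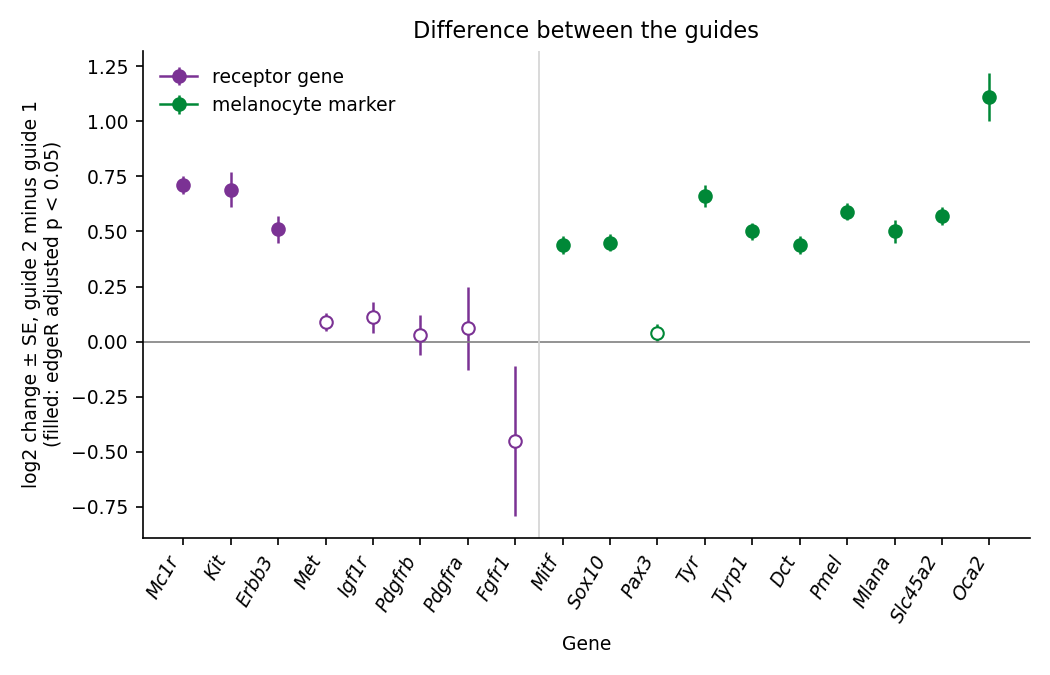
Log2 difference between the guides (guide 2 minus guide 1) with its standard error for the 8 tested receptor genes and the 10 melanocyte markers; filled points passed the edgeR test. Mc1r (0.71) and Kit (0.69) sit above all markers but Oca2 (1.11), Erbb3 sits at 0.51, and Met, Pdgfrb and Pax3 sit near 0.

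Genes with the most similar profile were sought among 9678 genes of at least 5 CPM, by the root mean square (RMS) difference of centred log2 CPM over the 9 libraries, which all share the same 3 groups. Mc1r lay closest to Enpp2, the lysophospholipase gene of autotaxin (RMS 0.068), and to Pmel, the melanosome fibril gene (0.072). Kit lay closest to the carbonic anhydrase gene Car14 (0.087) and Tmem51 (0.096). Erbb3 lay closest to Sox10, the neural crest transcription factor gene, and Fam53b (both 0.069). Met paired instead with Herpud1, a gene of endoplasmic reticulum protein disposal (0.035), and Lss, the lanosterol synthase gene (0.037). Pdgfrb lay closest to the protocadherin gene Pcdh1 (0.066) and to Nes, which encodes nestin (0.090), and Igf1r to Gbf1 and Phc3 (both 0.021). Distances were larger for the low genes, at 0.14 for Pdgfra with Whrn, 0.145 with Zbtb45, 0.308 for Fgfr1 with Spryd4 and 0.314 with Top1mt.

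More of the tested ligand genes rose than fell, and the KIT ligand rose while its receptor fell. Of 31 listed ligand genes 16 were tested, and 10 were called higher, Nrg4 lower (-0.65) and 5 not called in the knockout contrast, with a median log2 change of 0.76. Over all tested genes 24.7% were higher and 26.3% lower, with a median of -0.02. The filter on low counts can favour genes that rose. Btc passed it with 23 reads in GFPsg and 69 and 41 with the guides, while the agouti gene, with 28, 14 and 8, did not. The balance of higher and lower ligand genes may thus be partly set by the filter. The count of lower ligand genes was 3 without Tada2bsg2 replicate 1, 2 without Tada2bsg1 replicate 2 or Tada2bsg2 replicate 2, and 0 without GFPsg replicate 1, with library size alone or with a filter minimum of 50. Kitl, which encodes stem cell factor, the KIT ligand, went from 7.73, 8.40 and 8.67 CPM in GFPsg to 16.22, 15.19 and 15.32 with guide 1 and 14.50, 14.99 and 14.60 with guide 2. It rose by 0.87 ± 0.06 (SE; log2, edgeR adjusted p = 9.13e-10) as Kit fell. Pdgfb, a ligand of PDGFRB, went from 0.20, 0.27 and 0.21 CPM to 4.63, 4.44 and 4.90 and to 4.27, 3.45 and 3.73 CPM, a log2 rise of 4.21 ± 0.16 (edgeR adjusted p = 4.29e-13). Pdgfa (1.37 ± 0.06) and Pdgfc (1.29 ± 0.21) rose too, so that the tested PDGF ligand genes and Pdgfrb were all higher. The other PDGF receptor gene, Pdgfra, was not called (-0.04, edgeR adjusted p = 0.869). Pdgfd was too low to test, and its reads were fewer with the guides (49 in GFPsg, 23 with guide 1 and 13 with guide 2). Nrg4 passed with neither guide alone, and its call was lost with library size alone (edgeR adjusted p = 0.0634), with no filter on low counts (0.0542) and without GFPsg replicate 1 or 3, Tada2bsg1 replicate 1 or 3 or Tada2bsg2 replicate 3 (0.0699 to 0.115).

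Further ligand genes rose in the EGF and FGF families. Hbegf, an EGF family ligand, rose by 1.97 ± 0.08 on the log2 scale (edgeR adjusted p = 8.67e-13), from 3.51 ± 0.41 CPM in GFPsg to 14.8 ± 0.59 and 12.9 ± 0.69 (SD, n = 3), and Tgfa by 0.64, while Egfr had no reads and Erbb4 17 reads in all 9 libraries. Btc rose by 1.09 (edgeR adjusted p = 0.0348), a call lost with limma-voom (0.0532) and without GFPsg replicate 2 or 3, Tada2bsg1 replicate 1 or Tada2bsg2 replicate 1 or 2 (adjusted p 0.0536 to 0.107). Btc passed with guide 1 (1.45, edgeR adjusted p = 0.0125) and not with guide 2 (0.74, edgeR adjusted p = 0.226). Fgf7 rose by 2.68 and Fgf18 by 3.22 from means of 0.241 and 0.139 CPM in GFPsg, and Fgf1 at 5.53 CPM was not called (0.09). The neuregulin gene Nrg2 rose by 0.53 (edgeR adjusted p = 0.0162) from 0.957 CPM, a call lost without GFPsg replicate 2 (edgeR adjusted p = 0.072). It passed with guide 2 (0.65, edgeR adjusted p = 0.011) and not with guide 1 (0.41, edgeR adjusted p = 0.099), and Nrg1 had no reads. Hgf, the MET ligand, and Nrg3 had 1 read each in 9 libraries, Igf1 had 1 and Igf2 and Edn3 had 0. The melanocortin precursor gene Pomc was at 1.31 ± 0.16 CPM in GFPsg and was not called (0.22, edgeR adjusted p = 0.199). The agouti gene, the MC1R antagonist gene listed under the symbol a, had 28, 14 and 8 reads in the 3 groups and was not tested.

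**Figure D5:**
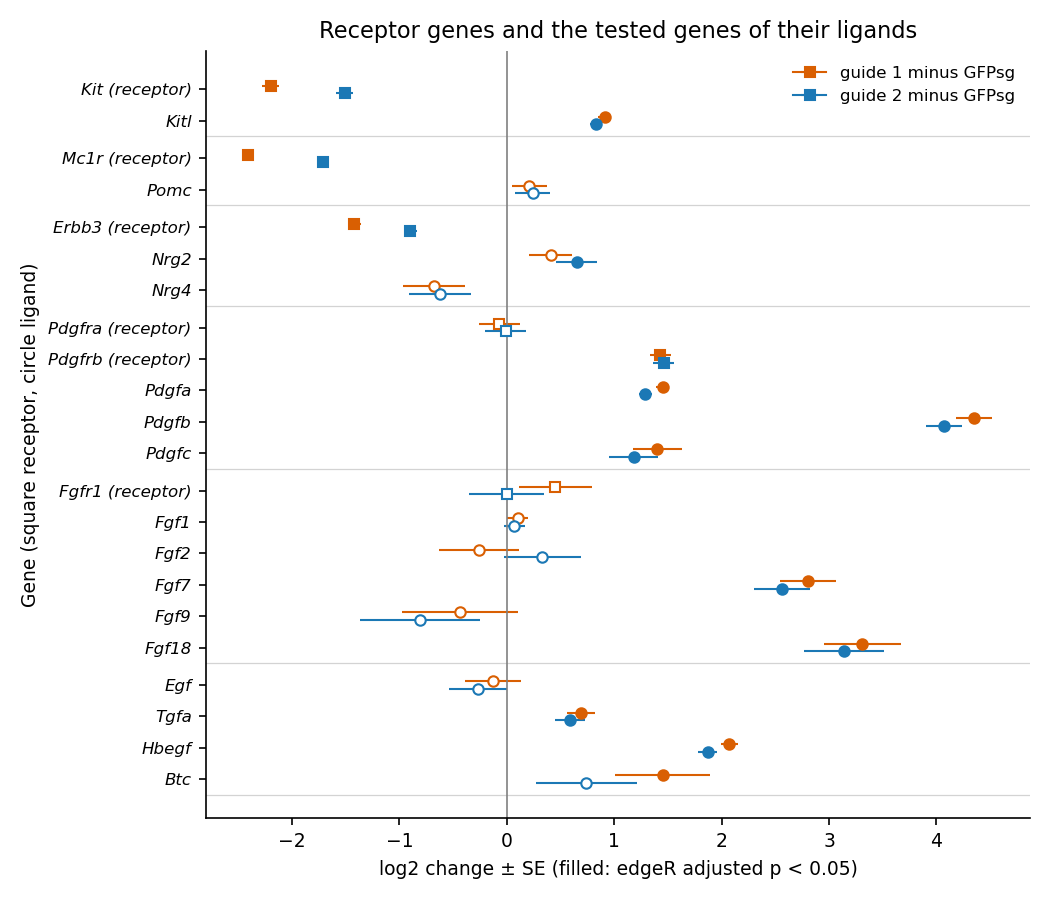
Log2 change with each guide, with its standard error, for receptor genes with a tested ligand (squares) and the ligand genes, with EGF family ligands as the last block (circles); filled points passed the edgeR test. Kit lies left of 0 and Kitl right of it, while Pdgfrb, Pdgfa, Pdgfb and Pdgfc all lie to the right and Pdgfra lies near 0.

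Related receptors were few in these cells. Of 20 listed relatives 6 were tested, 3 rose, 1 fell and 2 were not called, where 51.0% of all tested genes were called. The count of lower genes was 2 without Tada2bsg2 replicate 1 and with the replicate block, and 0 with a filter minimum of 50. The decoy-like Fgfrl1, which lacks a kinase domain, rose by 1.03 ± 0.06 on the log2 scale (edgeR adjusted p = 1.77e-10), from 7.41 ± 0.16 to 15.6 ± 0.45 and 14.7 ± 0.97 CPM, and Fgfr3 by 0.48 ± 0.10. Erbb2, the partner of ERBB3, rose by 0.23 ± 0.08 (edgeR adjusted p = 0.0262), a call lost without GFPsg replicate 2 (adjusted p = 0.0729) or GFPsg replicate 3 (adjusted p = 0.105), in a range from 0.00705 to 0.105. Erbb2 passed with guide 2 (0.28, edgeR adjusted p = 0.0211) and not with guide 1 (0.18, edgeR adjusted p = 0.129). Flt4, a receptor for lymphatic VEGF ligands, fell by 2.40 ± 0.38 from 85 reads in GFPsg to 19 and 15. The insulin receptor gene Insr (35.3 CPM in GFPsg) and Igf2r (171.2 CPM) were not called in the knockout contrast, though Insr was called lower with guide 1 (-0.20, edgeR adjusted p = 0.0206) and not with guide 2 (-0.02, edgeR adjusted p = 0.796). Ednra had 11 reads in all, and Mc2r, Mc3r, Mc4r and Mc5r had none.

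Genes that restrain or turn over these receptors went in both directions. Of 27 listed genes 26 were tested, 12 rose, 9 fell and 5 were not called, with a median log2 change of 0.07. Among all tested genes 24.7% rose and 26.3% fell. With 1 library left out the list gave 9 to 12 higher and 9 to 10 lower. Lrig1, a membrane protein gene whose product promotes loss of ErbB receptors and MET, went from 0.76, 0.60 and 0.60 CPM in GFPsg to 16.43, 14.74 and 15.65 with guide 1 and 13.32, 12.68 and 12.49 with guide 2, a log2 rise of 4.43 ± 0.10 (edgeR adjusted p = 3.38e-16). Errfi1, an inhibitor of ErbB kinases, rose by 1.39 ± 0.04, Socs3 by 1.64 ± 0.09 and Socs5 by 0.74 ± 0.04. The feedback inhibitors of MAP kinase signalling Dusp6 (-0.43), Spry2 (-0.43), Spry4 (-0.80), Spred1 (-0.34) and Spred2 (-0.20) fell; they were named after their values were seen, and the Spred2 call was lost with library size alone (-0.12, edgeR adjusted p = 0.051).

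Most changes among signal relay genes were small. All 39 listed adaptor and relay genes were tested, 9 rose, 14 fell and 16 were not called, with a median log2 change of 0.01, beside 51.0% called among all tested genes (24.7% higher, 26.3% lower). With library size alone 18 were higher and 8 lower, so the direction of the small changes depended on scaling. With 1 library left out 8 to 11 were higher and 10 to 13 lower, so some small calls also depended on single libraries. Irs1, the docking protein gene of the insulin and IGF1 receptors, rose by 1.55 ± 0.06, from 13.5 ± 0.74 to 40.3 ± 2.36 and 38.7 ± 2.78 CPM. Among PI3 kinase subunits, the catalytic Pik3cb rose by 1.48 ± 0.05 and the regulatory Pik3r1 by 0.38 ± 0.04, and the regulatory Pik3r3 fell by 1.18 ± 0.03, from 131.5 ± 4.51 to 53.0 ± 1.23 and 64.0 ± 1.19 CPM (log2 ± SE; CPM ± SD, n = 3). Of 8 IGF binding protein genes 4 were tested. Igfbp7 rose by 3.63 ± 0.09, from 0.859 ± 0.04 to 11.6 ± 0.76 and 9.74 ± 0.17 CPM, Igfbp6 by 1.25 ± 0.29 from 40 reads in GFPsg, and Igfbp4 fell by 0.81 ± 0.03. Igfbp5 was not called (-0.13).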

How the data were processed

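The authors deposited raw read counts per Ensembl gene, 1 column per library; the whole-number values show no normalization. Per the submitters' processing notes, bcl2fastq, HISAT2 and HTSeq were used with mm10; their versions, the annotation, the strand setting and filters are not given in the sources used here. RNA was extracted with an RNeasy Plus Mini kit and libraries made with a KAPA stranded mRNA kit, per the labels' protocols. Symbols, coordinates and exon lengths came from GENCODE M21.

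Genes were filtered with filterByExpr (minimum count 10), which kept 17931 of 54752 genes and 99.97% of counts, scaled by TMM and tested with edgeR 4.0.16 (R 4.3.3) in 1 quasi-likelihood fit of all 3 groups, with Benjamini-Hochberg adjustment over all tested genes. Standard errors are the change over the square root of F, and 95% intervals use the fit's degrees of freedom. The pipeline was tested on simulated counts. Alternatives were DESeq2 1.42.0, limma-voom 3.58.1, other scalings, filters, a replicate block, fits of only the groups compared, and each library left out. Replicates differed by more than sampling noise (chi-square per degree of freedom from 7.75 to 25.2).

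All 10 receptor genes are named. From each of 5 lists of related genes, up to 4 genes are named by smallest p in the knockout contrast, plus any of at least 50 CPM in a group that changed by a log2 of at least 1 with both guides; other list members named were chosen after their values were seen. For likeness of profile, the 2 nearest genes are named, without predicted, clone or Riken names. Members and lists were chosen with earlier results of these data known.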

Additional observations from a re-analysis of the deposited data

Results flagged for a closer look

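The effects of the 2 guides against GFPsg differed for 3 receptor genes by the test of guide 2 against guide 1. The log2 difference, guide 2 minus guide 1, was 0.71 for Mc1r (edgeR adjusted p = 6.33e-08), 0.69 for Kit (edgeR adjusted p = 7.70e-05) and 0.51 for Erbb3 (edgeR adjusted p = 1.20e-04), with all 3 libraries of guide 2 above all 3 of guide 1. The Tada2b mRNA itself was lower with guide 2 than with guide 1 (log2 difference -0.28, edgeR adjusted p = 0.00671). Against GFPsg it was called higher with guide 1 (log2 change 0.30, edgeR adjusted p = 2.13e-04) and not called with guide 2 (0.02, edgeR adjusted p = 0.806). The part of Tada2b mRNA in the differences of the receptor genes was not tested.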

How the results depend on the processing

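Of 32 combinations of receptor gene and contrast, 22 kept their direction and side of the threshold under every alternative run, among them every value of Mc1r, Kit, Erbb3 and Met and every comparison of Pdgfrb with GFPsg. Of 20 other named genes, 18 did so in the knockout contrast; the exceptions were Erbb2 and Igfbp5. Uncalled values near 0 changed sign: Pdgfra became 0.04 in the knockout contrast, 0.01 with guide 1 and 0.08 with guide 2 under library size alone, and with guide 2 it was 0.01 with DESeq2, 0.0 with limma-voom and 0.01 in the fit of only the groups compared, while Fgfr1 with guide 2 was -0.01 under the upper quartile. Leaving out 1 library, Pdgfra ran from -0.20 to 0.14 in the knockout contrast, -0.23 to 0.10 with guide 1, -0.17 to 0.17 with guide 2 and -0.08 to 0.19 between the guides, Fgfr1 from -0.07 to 0.45 in the knockout contrast and -0.30 to 0.23 with guide 2, Pdgfrb between the guides from -0.01 to 0.10, and Igfbp5 from -0.27 to 0.02 in the knockout contrast.

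The number of called receptor genes was 5 to 6 in each contrast with GFPsg and 3 to 3 between the guides with 1 library left out. All genes called between the guides were 660, and 1070 with no filter on low counts, 335 to 808 with 1 library left out (335 without Tada2bsg1 replicate 3, 345 without Tada2bsg1 replicate 2, 399 without Tada2bsg2 replicate 2). With the replicate block they were 1705, and the block changed no call of a receptor gene. In the knockout contrast the block took all genes called from 9141 to 9938. The labels do not say what a replicate number shares, so the main fit had no block. Same-numbered libraries of different groups had correlations of deviations from -0.01 to 0.10, and other-numbered ones from -0.09 to 0.04. In 14 of 18 checks, each among the 3 libraries of another group, a library was closest to its own number. A weak effect shared by replicate number may thus be present in the main fit. With a filter minimum of 50, Fgfr1, Flt4, Igfbp5 and Igfbp6 were not tested. Read depth limits Fgfr1, Pdgfra and the low ligand genes.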
